A study of Homo sapiens with 3 samples.

Results

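The retinoic acid handling genes of the human chambered cardiac organoids (CCOs) were followed over 3 days of culture. They are 9 genes chosen by name from the 32738 of the deposited table: ALDH1A1, ALDH1A2, CRABP1, CRABP2, RARB, CYP26A1, CYP26B1, DHRS3 and STRA6. CCOs were made from H7, a human embryonic stem cell line, by directed differentiation to cardiac progenitors that were aggregated in Matrigel on day 7. Before day 7, all cells had received CHIR99021, a GSK inhibitor, and later IWP-2. D8 CCOs and D14 CCOs were grown in cardiosphere growing medium with B27, thrombin, cardiotrophin-1, EGF, FGF-2, Wnt-3A and EDN1, and D21 CCOs were moved on day 14 to a spinner flask with RPMI/B27. All CCOs came from the same line, and the labels name no transgene, no drug treatment of the CCOs and no added retinoic acid. The retinoid content of the media, B27 included, is not stated, so a supply of retinoid is not excluded. Each day is 1 droplet library, in which captured mRNA molecules are counted by unique molecular identifiers (UMIs) in each cell. The effects of day and of library therefore cannot be told apart, and no test between days was possible.

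Retinoic acid is made from vitamin A in a pair of steps. STRA6 is the membrane receptor that takes retinol from its carrier in the blood, retinol is oxidized to retinal, and the retinaldehyde dehydrogenases ALDH1A1 and ALDH1A2 oxidize retinal to retinoic acid. DHRS3 works against this flow by reducing retinal back to retinol. CRABP1 and CRABP2 bind retinoic acid in the cytoplasm, RARB is a nuclear receptor for it, and CYP26A1 and CYP26B1 are the cytochromes that break it down. In the embryonic heart, retinoic acid made by ALDH1A2 is known for its part in limiting the heart field and in patterning the inflow region, and the liver is known for storing and handling vitamin A.

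RARB and CYP26A1 are both textbook targets of retinoic acid, through a DNA element made of a pair of 6-letter motifs in direct repeat with 5 bases between them. RefSeq promoter windows, running from 250 bases before to 50 bases after each annotated start on GRCh38.p14, were found for all 9 genes, 20 windows in all. They were searched on both strands for the motif AGGTCA, for its variants AGTTCA as well as GGGTCA along with GGTTCA, and for direct repeats of these motifs spaced by 1, 2 or 5 bases, the single motifs being part of any repeat found. A repeat spaced by 5 was held by 31 of 35116 windows (0.0883%), and 2 of these 31 belong to the 9 genes, 1 to CYP26A1 and 1 to RARB. Repeats spaced by 1 or 2 bases were in 0.131% and 0.0399% of all windows and in none of the 20. A single motif was in 38.6% of all windows and in 10 of the 20. The 150 bases before the start are shown for the windows of CYP26A1 and RARB that hold a repeat spaced by 5. CYP26A1 has 2 windows and RARB 4, and the windows not shown hold no repeat. The levels of both genes are set against each other in what follows. Capitals mark the 6-letter motifs on either strand, in a match of letters that says nothing of binding in these cells.
CYP26A1, chr10:93073743-93073892, plus strand: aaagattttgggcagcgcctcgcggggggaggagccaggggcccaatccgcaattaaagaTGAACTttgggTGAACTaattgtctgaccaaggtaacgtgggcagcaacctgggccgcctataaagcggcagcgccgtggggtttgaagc
RARB, chr3:25428113-25428262, plus strand: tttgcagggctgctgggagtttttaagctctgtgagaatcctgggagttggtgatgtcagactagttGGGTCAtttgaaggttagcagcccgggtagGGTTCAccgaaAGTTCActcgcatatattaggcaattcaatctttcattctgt
In CYP26A1 the repeat begins 90 bases before the start and reads on the opposite strand, and in RARB it begins 53 bases before the start and reads on the gene's own strand.

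After a filter on cells, the 3 libraries (D8, D14, D21) kept 2657, 3585 and 1946 cells, holding 46767738, 50247286 and 30898727 UMIs. They came from 3563, 4615 and 9149 barcodes, so the filter removed a far larger part of D21. A mitochondrial limit of 20% in place of 10% kept 2668, 3769 and 3602 cells. The median depth of a cell was 15316, 12282 and 14106 UMIs, respectively. Levels are given as UMIs of a gene per 1000000 UMIs of the cells named (CPM), summed over those cells, and brackets hold exact 95% Poisson intervals, which cover counting error only. The 3′ libraries count molecules and are not scaled by gene length, so levels are compared within a gene. The libraries share few barcodes, at most 14 among kept cells, between D8 and D14.

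One clustering of all 8188 kept cells, made without the 9 genes, gave 18 clusters, and a day of a cluster with at least 20 cells makes a group, 25 in all. A cluster was named from marker genes. CM-like cells, which carried cardiomyocyte markers, lay in cluster 4 (mainly D8), cluster 0 (mainly D14) and the D21 clusters 5 and 17. Cluster 17 is mixed, with a median depth of 8172 UMIs. Its cardiomyocyte markers summed to 26226 CPM and its hepatic markers to 26594 CPM, beside 39317 and 1487 CPM in cluster 5. The naming rule still placed it with the CM-like cells. Cluster 3 was cardiac fibroblast-like and cluster 10 hepatic endoderm-like, both at D21, cluster 14 was endothelial-like on all days, and clusters 6, 9 and 15 were led by genes of dividing cells. The others stayed unnamed and are called by their leading genes. Of these, cluster 7 (PRSS1, TTR, APOA2) had 7 of 8 mesendoderm or foregut epithelium markers but also 4 hepatic ones, and cluster 13 (SFRP2, POU5F1, SOX2) had 4 markers each of that list and of surface ectoderm. Of the 18 clusters, 15 drew at least 90% of their cells from 1 library, so cluster and library are hard to separate.

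Over all cells CYP26A1, CRABP2 and RARB had their highest level at D8, CRABP1 and STRA6 at D14, and ALDH1A1 and DHRS3 at D21. A gene was called between successive days when its level differed at least 2-fold and reached 10 CPM on 1 of them, and 6 of the 9 genes reached 10 CPM at each step. From D8 to D14 none of the 9 was called higher, against 8.95% of all 9105 genes tested, and 2 were called lower (CYP26A1 and DHRS3), against 1.63%. From D14 to D21, 2 were called higher (ALDH1A1 and DHRS3), against 5.8% of 9333 genes, and 3 were called lower (CRABP1, RARB and STRA6), against 10.1%. The median log2 ratio of the 6 was -0.13 at the first step and -1.15 at the second, beside 0.08 and -0.20 over all genes tested. These are counts over single libraries and carry no replicate error. Fewer cells of a type and less RNA in each cannot be told apart in such sums. Neither gene called higher at D21 was called without the cells of clusters 10 and 17, which carry hepatic transcripts.

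**Figure D1:**
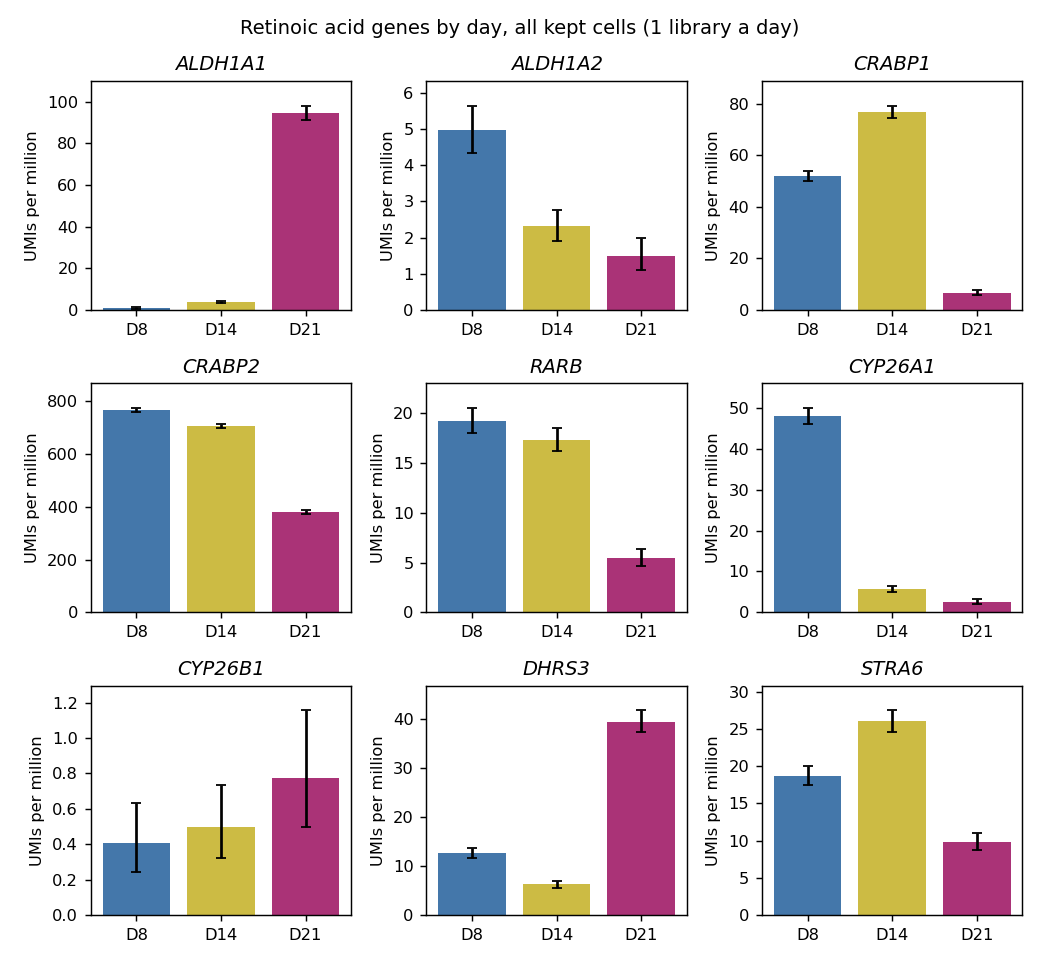
Level of each of the 9 genes on D8, D14 and D21 over all kept cells, in CPM on a linear axis that starts at 0 and differs between panels, with 95% Poisson intervals as error bars and 1 library a day. ALDH1A1 and DHRS3 stand highest at D21 (94.6 and 39.5 CPM), whereas CYP26A1 stands highest at D8 (47.9 CPM).

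ALDH1A1, the retinal-oxidizing enzyme, was found almost entirely in hepatic endoderm-like cells of D21. Over all cells it counted 43 UMIs at D8 (0.919 CPM [0.665–1.24]), 192 at D14 (3.82 [3.30–4.40]) and 2924 at D21 (94.6 [91.2–98.1]). The step from D14 to D21 was a log2 ratio of 4.63 (95% interval 4.42 to 4.85). Of the D21 UMIs, 93.4% lay in cluster 10, which held 15.7% of the cells and gave 364 CPM [350–377]. Without clusters 10 and 17, ALDH1A1 stood at 5.68 CPM at D21, a log2 ratio of 0.57 to D14, and it was no longer called. Thinned to 4000 UMIs a cell, 65.7% of the cells of cluster 10 had an ALDH1A1 UMI (60.1–71.0%), and 92.5% before thinning. Among D21 groups of at least 50 cells, the lowest share was 2.14%, in cardiac fibroblast-like cells (median depth 12738 UMIs against 21930 in cluster 10). The level was carried by many cells of cluster 10, as 17.6% of them held 50% of the thinned UMIs.

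Cluster 17, 50 cells of D21 with CM markers, was the only other group above 20 CPM of ALDH1A1, at 130 CPM [99.6–166]. It also held hepatic transcripts, with AFP at 5366 CPM and SERPINA1 at 2775 CPM, beside 11279 and 20847 CPM in cluster 10 and TNNT2 at 7663 CPM. In the 6 other D21 groups, ALDH1A1 was between 3.31 and 8.21 CPM and SERPINA1, a secreted liver protein, between 157 and 229 CPM. For every 1000 SERPINA1 UMIs there were 17.4 ALDH1A1 UMIs in cluster 10, 46.7 in cluster 17 and 21.0 to 39.7 in the other D21 groups. The part of free RNA or of mixed droplets in these low levels was not tested. CM-like cells had no ALDH1A1 UMI at D8, which allows up to 0.385 CPM, and 1.65 CPM at D14. At D21 they had 13.7 CPM with cluster 17 and 5.50 CPM in cluster 5 alone. At D14, the group with the highest ALDH1A1 was cluster 12 (EBF2, SST), at 12.3 CPM [8.90–16.4], followed by cluster 7 at 8.51 CPM [6.11–11.6], with intervals that overlap. In other clusterings the cluster that took most cells of cluster 12 had between 3.59 and 16.01 CPM, below cluster 7 in some of them, so this order depends on the grouping.

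ALDH1A2, the retinal-oxidizing enzyme of the embryonic heart field and epicardium, was sparse on all days. It counted 232 UMIs at D8 (4.96 CPM [4.34–5.64]), 116 at D14 (2.31 [1.91–2.77]) and 46 at D21 (1.49 [1.09–1.99]), and never reached the 10 CPM asked of a called gene over all cells. The level was lower at each later day, with log2 ratios of -1.10 (-1.44 to -0.78) and -0.63 (-1.16 to -0.13). The highest levels were those of endothelial-like cells, 11.9 CPM at D8 and 12.5 CPM at D14, which rest on 10 and 8 UMIs. At D21 these cells had no UMI, which allows up to 4.93 CPM. Other groups with ALDH1A2 at D8 were the dividing cluster 9 (8.74 CPM [6.69–11.2]) and cluster 2, led by EBF2, PGF and HAND1 (7.55 CPM [6.17–9.15]). Both intervals overlap that of endothelial-like cells (5.73–22.0). CM-like cells were low on each day, at 1.28, 0.689 and 0.274 CPM.

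DHRS3, which returns retinal to retinol, was highest in cluster 7 at D8 and in hepatic endoderm-like cells at D21. Its level over all cells was 12.6 CPM at D8 [11.6–13.6], 6.25 at D14 [5.58–6.98] and 39.5 at D21 [37.4–41.8]. The first step was a log2 ratio of -1.01 (-1.21 to -0.81), just past the 2-fold limit, and the second was 2.66 (2.48 to 2.85). At D8, cluster 7 gave 46.7 CPM [41.7–52.2] and 52.6% of the UMIs with 9.6% of the cells. At D21, cluster 10 gave 123 CPM [115–131] and 75.8% of the UMIs. At D14, CM-like cells of cluster 0 held the largest share of the UMIs, 46.2%, against 26.4% in cluster 7, whose level of 17.2 CPM [13.7–21.4] overlaps that of cluster 13 (15.1 CPM [9.86–22.1]). Endothelial-like cells came next at D8 and D21 (20.3 CPM [11.8–32.5] and 44.3 CPM [29.2–64.5]). Without clusters 10 and 17 the D21 level was 12.5 CPM and the log2 ratio to D14 was 1.00, by a narrow margin not called.

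Within CM-like cells DHRS3 was 8.33 CPM at D8, 9.99 at D14 and 16.6 at D21, and the last step had a log2 ratio of 0.73 (0.37 to 1.09). In CM-like cells chosen by marker genes in place of clusters it was 10.9, 9.49 and 17.4 CPM. The order of D8 and D14 thus depends on the grouping. For every 1000 SERPINA1 UMIs, DHRS3 had 5.91 UMIs in cluster 10 and 81.3 in the CM-like cluster 5, and the part of free RNA in the latter was not tested. In cluster 10, 42.8% of the thinned cells had a DHRS3 UMI (37.2–48.6%), 89.5% before thinning. The lowest share among D21 groups of at least 50 cells was 1.69%, in the dividing cluster 15. Of the 201 thinned cells of cluster 10 with an ALDH1A1 UMI, 43.3% also had DHRS3, close to the 42.8% of all 306 cells.

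**Figure D2:**
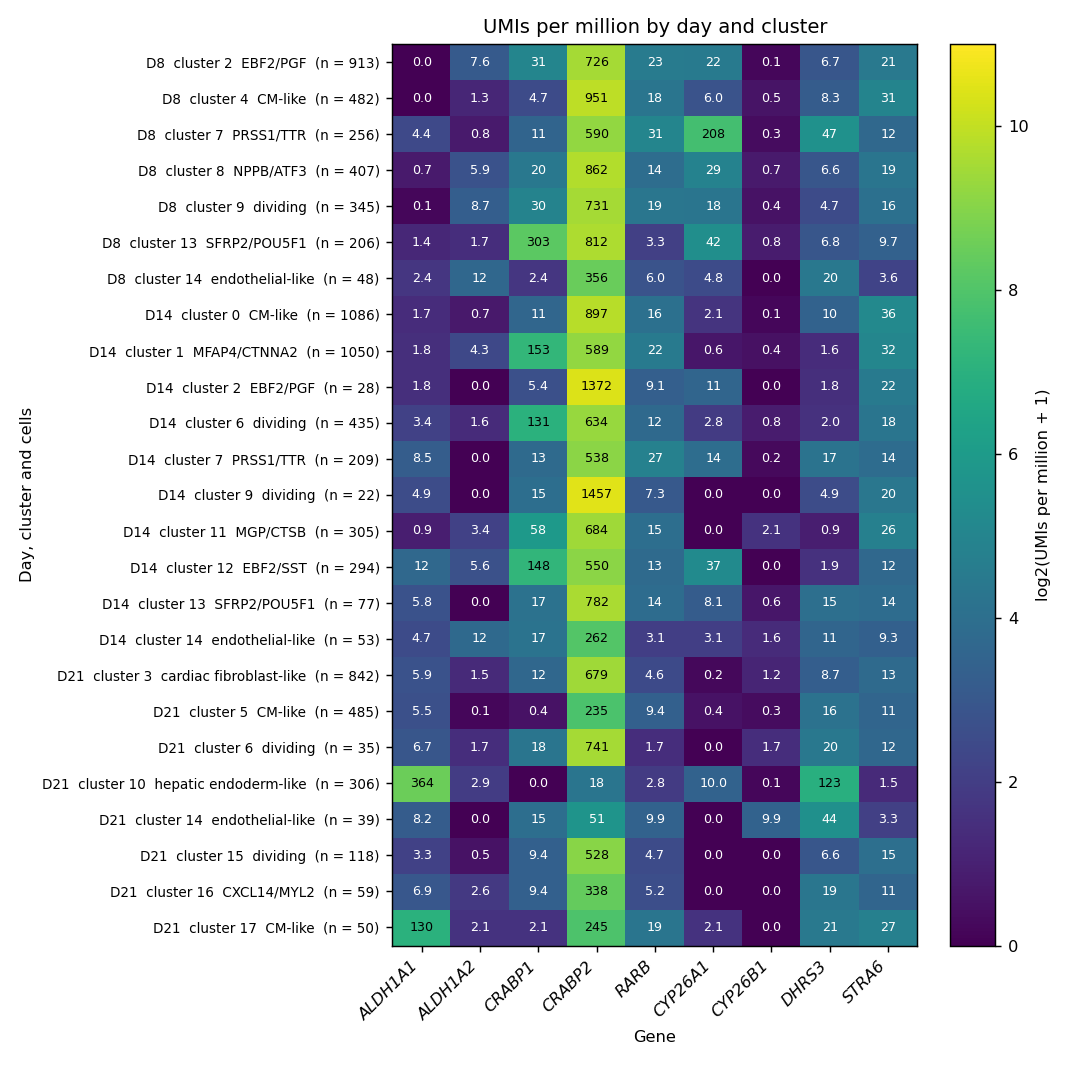
Level of the 9 genes in the 25 groups of at least 20 cells, 1 row per day and cluster, with the CPM printed in each cell and the color giving log2(CPM + 1). ALDH1A1 (364 CPM) and DHRS3 (123 CPM) stand out in the D21 hepatic endoderm-like cluster 10, CYP26A1 in the D8 cluster 7 (208 CPM) and CRABP1 in the D8 cluster 13 (303 CPM), while CRABP2 is at least 235 CPM in every group but cluster 10 and the D21 endothelial-like cells (18.2 and 50.9 CPM).

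CYP26A1, the main enzyme of retinoic acid breakdown, was a D8 gene centred on cluster 7. Over all cells its level was 47.9 CPM at D8 [45.9–49.9], 5.67 at D14 [5.03–6.37] and 2.62 at D21 [2.08–3.26], the first step having a log2 ratio of -3.08 (-3.26 to -2.90). Cluster 7 gave 208 CPM [197–219] at D8 and held 61.4% of the UMIs. Next came cluster 13 with 42.1 CPM [36.7–48.1], cluster 8 (NPPB, ATF3, NMB) with 28.6 [24.3–33.4] and cluster 2 with 22.4 [20.01–25.1]. The intervals of clusters 8 and 2 overlap, and those of clusters 7, 13 and 8 do not. With 3000 variable genes, the cluster that took most cells of cluster 2 had 4.78 CPM of CYP26A1. The lowest D8 levels were in endothelial-like and CM-like cells, at 4.78 CPM [1.30–12.2] and 6.03 CPM [4.43–8.01]. After thinning, 32.4% of the cells of cluster 7 had a CYP26A1 UMI (26.7–38.5%) and 47.7% before it, against 2.07% in CM-like cells, the lowest D8 share in groups of at least 50 cells (median depths 23581 and 14430 UMIs).

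The same cluster at D14, with 209 cells, had 14.3 CPM [11.1–18.1], a log2 ratio of -3.86 (-4.23 to -3.51). DHRS3 was also lower there, by a log2 ratio of -1.44 (-1.81 to -1.09). RARB, in contrast, was 31.0 CPM [26.9–35.5] there on D8 and 27.2 CPM [22.7–32.3] on D14, a log2 ratio of -0.19 whose interval (-0.52 to 0.13) holds 0. The genes with a direct repeat spaced by 5 bases in their windows therefore did not have the same course in these cells. At D14 the highest group for CYP26A1 was cluster 12, at 37.3 CPM [31.3–44.2] and 47.0% of the UMIs of the day. That value depends on how cells were grouped, since the clusters that took most of these cells in other clusterings had between 2.69 and 37.3 CPM. At D21, 75 of the 81 UMIs lay in hepatic endoderm-like cells (9.98 CPM [7.85–12.5]), and without clusters 10 and 17 the level was 0.218 CPM.

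CYP26A1 was uneven among cells of 1 group. In cluster 7 at D8, 16 of 256 cells held 50% of the thinned UMIs, the highest cell had 19, and the variance over the mean was 5.28. In cluster 2, 7 of 913 cells held 50%, with a highest cell of 18 UMIs. The Poisson intervals of the levels do not cover such unevenness. RARB in cluster 2 had a variance over the mean of 1.01 and a highest cell of 2 UMIs. The other breakdown enzyme, CYP26B1, had 19, 25 and 24 UMIs on the successive days (0.406, 0.498 and 0.777 CPM). Its highest group was D21 endothelial-like cells at 9.85 CPM [3.62–21.4], from 6 UMIs, beside 1.22 CPM [0.666–2.04] in cardiac fibroblast-like cells and 0.274 CPM [0.0332–0.990] in CM-like cells of that day.

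**Figure D3:**
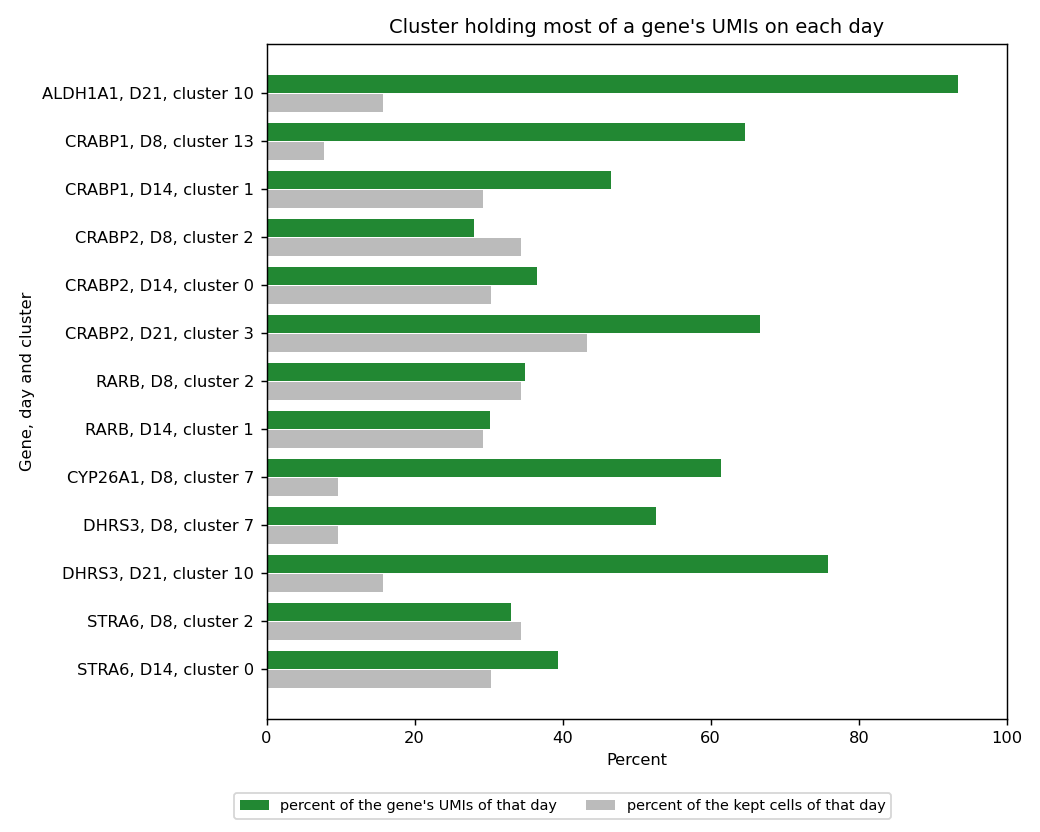
For each gene and day with at least 10 CPM over all cells, the cluster holding the largest share of the gene's UMIs (green) beside the share of that day's kept cells in the same cluster (grey), in percent. The green bar far exceeds the grey one for ALDH1A1 at D21 (93.4% against 15.7%), CYP26A1 at D8 (61.4% against 9.6%) and CRABP1 at D8 (64.6% against 7.8%), while for RARB and STRA6 at D8 the bars are close to each other.

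CRABP1, a cytoplasmic binding protein for retinoic acid, was highest in different clusters at D8 and D14 and was low at D21. Its level over all cells was 51.8 CPM at D8 [49.8–53.9], 76.7 at D14 [74.3–79.2] and 6.60 at D21 [5.73–7.57], and the last step had a log2 ratio of -3.54 (-3.75 to -3.34). At D8 cluster 13 gave 303 CPM [288–318] and 64.6% of the UMIs with 7.8% of the cells. The next D8 groups were clusters 2 and 9, at 31.2 CPM [28.3–34.2] and 29.7 CPM [25.8–34.0], whose intervals overlap. With 3000 variable genes, the cluster that took most cells of cluster 2 had 9.69 CPM. At D14 the gene was spread over cluster 1 (MFAP4, CTNNA2, GAS1) with 153 CPM [146–160], cluster 12 with 148 CPM [136–161] and the dividing cluster 6 with 131 CPM [123–139]. Clusters 1 and 12 have overlapping intervals, as do clusters 12 and 6. Cluster 13 itself had 16.8 CPM [11.3–24.2] at D14 in 77 cells.

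CM-like cells had little CRABP1, at 4.74 CPM [3.34–6.54] at D8, 11.4 [9.70–13.2] at D14 and 0.548 [0.149–1.40] at D21. In hepatic endoderm-like cells no UMI was counted, which allows up to 0.399 CPM. Like CYP26A1, CRABP1 was uneven within its groups. In cluster 13 at D8, 39.8% of the thinned cells had a UMI (33.1–46.8%), 65.5% before thinning, but 16 of 206 cells held 50% of the UMIs. The lowest D8 share among groups of at least 50 cells was 1.17%, in cluster 7. In cluster 1 at D14 the share was 31.3% (28.5–34.2%) and 47.3% before thinning, against a lowest D14 share of 1.89% in endothelial-like cells.

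CRABP2, which carries retinoic acid to its receptors, was the broad member. It was at 764 CPM at D8 [756–772], 705 at D14 [697–712] and 379 at D21 [372–386]. The D21 level depended on the limits on cells, from 257 CPM over all deposited barcodes to 607 CPM at a mitochondrial limit of 5%, and the log2 ratio to D14 was -0.89 with a range of -1.44 to -0.12 over the alternatives. At least 81.6% of the thinned cells of each D8 and D14 group had a UMI except in endothelial-like cells, which had 64.6% and 56.6%. Hepatic endoderm-like cells were at the other end, with 18.2 CPM [15.3–21.6] and 6.86% of cells. CM-like cells had 951 CPM [929–973] at D8, 897 [881–912] at D14 and 235 [224–247] at D21, a log2 ratio of -1.93 (-2.003 to -1.86) for the last step. Cardiac fibroblast-like cells of D21 stood at 679 CPM [664–695], above the CM-like cells of the same library. Endothelial-like cells had 356, 262 and 50.9 CPM on the 3 days. CRABP1-bearing cells did not lack CRABP2. In cluster 13 at D8, 87.8% of the 82 cells with CRABP1 had CRABP2, beside 89.3% of all cells.

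RARB, a receptor whose gene is itself a retinoic acid target, was present in most groups at D8 and D14. Over all cells it was 19.2 CPM at D8 [17.9–20.5], 17.3 at D14 [16.1–18.4] and 5.47 at D21 [4.68–6.36]. Its log2 ratios were -0.15 (-0.29 to -0.02) and -1.66 (-1.90 to -1.42). Cluster 7 was highest on D8 and D14, and its interval does not overlap that of the next D8 group, cluster 2 (22.7 CPM [20.3–25.4]). At D14 it does overlap that of cluster 1 (22.3 CPM [19.7–25.2]). The lowest D8 level was in cluster 13, at 3.29 CPM [1.91–5.26], the group with the most CRABP1, but the interval overlaps that of endothelial-like cells (5.97 CPM [1.94–13.9], 5 UMIs). In cluster 7 at D8, 13.3% of the thinned cells had a RARB UMI (9.38–18.1%) and 47.3% before thinning, against 1.46% in cluster 13. CM-like cells had 18.5 CPM [15.6–21.7], 15.9 [13.9–18.1] and 9.86 [7.72–12.4], the last step having a log2 ratio of -0.69 (-1.09 to -0.30). At D21, hepatic endoderm-like cells had 2.80 CPM [1.73–4.27] and cardiac fibroblast-like cells 4.61 CPM [3.45–6.03]. Cluster 17, counted among the CM-like cells, had the highest D21 level, 18.5 CPM from 9 UMIs.

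STRA6, the retinol receptor, was highest in CM-like cells on D8 and D14. Its level over all cells was 18.7 CPM at D8 [17.5–19.99], 26.1 at D14 [24.7–27.5] and 9.87 at D21 [8.79–11.04]. CM-like cells had 30.6 CPM [26.9–34.8] at D8, above the next group, cluster 2 at 21.0 CPM [18.6–23.6]. Chosen by marker genes, CM-like cells of D8 had 24.8 CPM. With 3000 variable genes, 1 cluster at 28.4 CPM took all cells of cluster 4 and 51.0% of cluster 2. The gap between these clusters thus depends on the grouping. At D14 CM-like cells had 35.5 CPM [32.5–38.7], with an interval that overlaps that of cluster 1 (31.6 CPM [28.5–35.0]). At D21 they had 12.2 CPM [9.79–15.0], a log2 ratio of -1.54 (-1.88 to -1.22), close to cardiac fibroblast-like cells at 13.0 CPM [10.96–15.2]. That value includes cluster 17, which had the highest D21 level, 26.8 CPM from 13 UMIs. Hepatic endoderm-like cells had 1.46 CPM [0.731–2.62]. In CM-like cells of D8, 34.6% of cells had a UMI before thinning, against 16.99% in cluster 13. Cluster 13 had the lowest thinned share among D8 groups of at least 50 cells. The 48 endothelial-like cells of D8 were lower, with 4.17% before thinning and 2.08% after it.

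**Figure D4:**
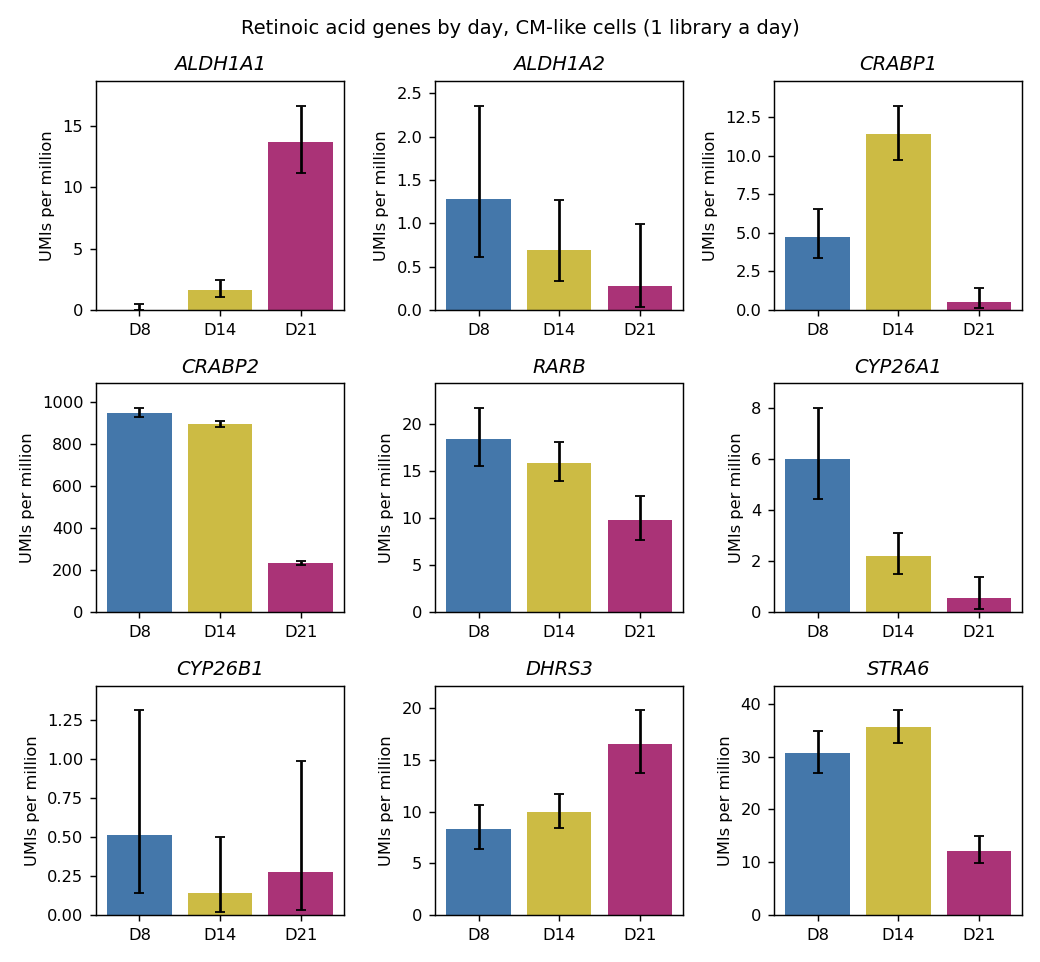
Level of each of the 9 genes in CM-like cells (482, 1092 and 541 cells on D8, D14 and D21), in CPM on a linear axis that starts at 0 and differs between panels, with 95% Poisson intervals as error bars and 1 library a day. CRABP2 and STRA6 are lower at D21 than on both earlier days, and the D21 bar of ALDH1A1 (13.7 CPM) includes cluster 17.

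Within CM-like cells, 4 of the 9 genes reached 10 CPM at the first step and 6 at the second. Between D8 and D14, 1 was called higher (CRABP1), against 10.6% of 9073 genes, and none lower, against 2.38%. Between D14 and D21, 1 was called higher (ALDH1A1), against 5.06% of 9134 genes, and 3 lower (CRABP1, CRABP2 and STRA6), against 15.2%. Without cluster 17 the log2 ratio of ALDH1A1 was 1.72 in place of 3.05, and its D21 level of 5.50 CPM was then under the 10 CPM asked of a called gene. The 6 genes had a median log2 ratio of -1.12 at the second step, beside -0.18 over all genes tested.

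Among the other genes of the pathway, 32 were listed, of which 23 reached 20 CPM on a day or in a group. From D8 to D14, 18 of the 32 reached 10 CPM, and 1 was called higher (RXRG) and 1 lower (RDH10), against 8.95% and 1.63% of all genes tested. From D14 to D21, 21 reached it, and 5 were called higher (RDH10, ADH4, RBP2, RBP4 and TTR) and 0 lower, against 5.8% and 10.1% of all genes. The count called lower ran from 0 to 3 over the alternatives. The hepatic endoderm-like cells held the highest level of RBP4 (2892 CPM), TTR (1418), ADH4 (95.8), RBP2 (85.9) and RBP5 (33.8). RBP4 and TTR carry retinol in the blood, ADH4 oxidizes retinol, and RBP2 and RBP5 bind it inside cells. Without clusters 10 and 17 the counts were 2 called higher and 2 called lower at D21. The share of all genes called in those cells was not computed. The genes that oxidize or store retinol also differed between groups. RDH10, the retinol dehydrogenase of the embryo, had 12.9 CPM at D8, 3.08 at D14 and 12.04 at D21. LRAT, which esterifies retinol for storage, was highest in CM-like cells of D8 (30.9 CPM [27.1–35.1]). ALDH1A3, the remaining retinal-oxidizing enzyme, and CYP26C1, the remaining breakdown enzyme, had at most 0.834 and 0.0398 CPM on any day.

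Among the other receptors, RXRG, a heterodimer partner known from heart and muscle, differed most between days. RXRG was 2.31 CPM at D8, 31.3 at D14 and 17.2 at D21, a log2 ratio of 3.76 (3.48 to 4.06) at the first step, and its highest group was CM-like cells of D14 with 76.0 CPM [71.6–80.6]. RARA had 7.78, 14.1 and 16.4 CPM, RARG 6.54, 5.89 and 5.76, and RXRA 21.3, 24.8 and 24.6.

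Of 14 genes known to be induced by retinoic acid in other settings, 9 reached 20 CPM on a day or in a group. From D8 to D14, 6 of the 14 reached 10 CPM, and 3 were called higher (MEIS2, NR2F2 and TGM2; 1 to 3 over the alternatives) and 0 lower (0 to 1), against 8.95% and 1.63% of all genes. From D14 to D21, 8 reached it, and 3 were called higher (NR2F1, TGM2 and TBX5; 1 to 3 over the alternatives) and 1 lower (HOXB2; 0 to 2), against 5.8% and 10.1% of all genes. HOXB2, a homeobox gene, was highest in cluster 1 of D14 (96.3 CPM), and at D8 it had 9.53 CPM in cluster 7 and 3.87 CPM in cluster 13, the groups with the most CYP26A1. MEIS2, a homeobox cofactor, had 43.9 and 31.1 CPM in these clusters, beside 403 CPM in CM-like cells of D8. MEIS1, TGM2 and TBX5 were likewise lower in both clusters than in these CM-like cells, but NR2F2 and RARRES2 were higher. NR2F2 had 24.2 and 20.9 CPM in clusters 7 and 13, beside 1.54 CPM in the CM-like cells. RARRES2 had 21.6 and 157.5 CPM, beside 6.15 CPM. Endothelial-like cells of D8, with CYP26A1 at only 4.78 CPM, had 35.8 CPM of MEIS2 [24.2–51.2] and 21.5 CPM of HOXB2 [12.7–34.0]. A link between CYP26A1 and the listed genes was not tested. TGM2, a transglutaminase, was highest in the CM-like cluster 5 of D21 with 370.5 CPM. The list's members thus differed in group and in day.

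Over the 25 groups, the genes whose log2(CPM + 10) was most correlated with each of the 9 were looked up as a description, since the groups share 3 libraries. For ALDH1A1 they were GSTA1, PLG and HSD17B2 (Pearson's r 0.98, 0.97 and 0.97), and for CYP26A1 they were OTX2, PCOLCE2 and RP11-771K4.1 (0.90, 0.85 and 0.80). The closest to DHRS3 was C1orf115 (0.85), to CRABP1 NEFM (0.80), to CRABP2 AAMP (0.83), to STRA6 LHFPL2 (0.84) and to RARB METAP2 (0.77).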

How the data were processed

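Gene expression was measured in single cells of CCOs, with 1 library for each of D8, D14 and D21. What the authors deposited are UMI counts that were not normalized, for 17327 barcodes with no filter on cells applied. Per the labels a Chromium 3′ v2 kit was used, and the submitters' processing notes name Cell Ranger, Seurat 3.2.1 and hg19. No coordinates of that build are given, and those of the promoter windows are GRCh38.p14.

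As in the study's methods, a cell was kept with over 2000 but under 7500 genes and less than 10% mitochondrial UMIs. Genes seen in fewer than 10 barcodes were dropped. Seurat 5.3.0 in R 4.3.3 clustered all days together (1947 variable genes, without the retinoid genes and those the paper names, 20 principal components, resolution 0.8). Naming asked that 4 or more markers of a list be 2-fold above the other cells of its main day with 10 CPM added, 2 markers ahead of the next list, unless another list held more of its 10 leading genes or it was shallow. No doublet caller was run and doublets were kept.

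Counts were summed per day and group. Intervals are exact (Poisson for levels, the split of summed counts for log2 ratios, Clopper-Pearson for shares), at 95%. Those of levels and ratios were run on simulated independent Poisson counts, for which they hold by construction. Those of shares were not simulated. None of the level and ratio intervals covers unevenness of a gene between cells of a group. All intervals cover counting error only. A count of 0 was given the limit of 3 counts. Shares used cells thinned to 4000 UMIs, and no kept cell was shallower. With 1 library per day no p-value was computed. All 9 genes are named, along with listed pathway genes at 20 CPM or more in a day or group, absent genes of the lists by role, and the 3 genes most like a member among those at 50 CPM or more (only the first for 5 of them). Some genes that meet these rules are not reported here. The members, lists and naming limits were chosen with earlier results of these data known. Alternatives were other limits on cells, clusterings, marker gates, folds and scalings (TMM from edgeR 4.0.16, median of ratios). Python 3.11.15, numpy 2.4.6, scipy 1.17.1, pandas 2.3.3 and matplotlib 3.10.9 were used.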

Additional observations from a re-analysis of the deposited data

Results flagged for a closer look

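From D8 to D14, CRABP1, RARB and DHRS3 were at least 2-fold higher in some groups and at least 2-fold lower in others. These ratios lay beyond the counting intervals, and the differences between groups were not tested. The share of all genes with such opposite ratios was not computed, so nothing here sets the 9 genes apart. For CRABP1 the log2 ratios were 1.26 in CM-like cells, 2.08 in dividing cells and 2.84 in endothelial-like cells (from 2 and 11 UMIs), but -2.52 in cluster 2 (3 UMIs at D14) and -4.17 in cluster 13. The dividing cells lay in cluster 9 at D8 and mostly in cluster 6 at D14, and within cluster 9 CRABP1 was 29.7 and 14.7 CPM, a log2 ratio of -1.02 (-2.48 to 0.13). For RARB they were 2.08 in cluster 13 and -1.33 in cluster 2. For DHRS3 they were 1.16 in cluster 13 and -1.44 in cluster 7. Cluster 2 had 28 cells at D14 against 913 at D8, and cluster 13 had 77 against 206, so which cells a cluster drew from each library moves with these values, and its part in them was not tested.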

How the results depend on the processing

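With 1 library per day, no replicate could be left out and no replicate error is known. No paired analysis was possible because each day has a single sample and no test was run. Of 28 log2 ratios, 27 kept their direction under the alternatives run for them (limits on cells, scalings and leaving out clusters 10 and 17 for all cells; scalings, marker genes and leaving out cluster 17 for CM-like cells; no other clustering), and CYP26B1 from D8 to D14 changed to -0.0033 under the mean of CPM per cell. The 2 genes called lower at D14 were 1 (CYP26A1) with a mitochondrial limit of 20%, with over 1000 genes, over all deposited barcodes, without the deepest 5% of cells, under the mean of CPM per cell and at 3-fold, because DHRS3 lies at the limit. The genes called higher at D21 were 2 under the other alternatives and 0 without clusters 10 and 17, an alternative chosen after seeing the data, as was leaving out cluster 17. The log2 ratio of STRA6 from D14 to D21 was -0.95 at a mitochondrial limit of 5%, under the 2-fold limit. That limit keeps 37 of the 306 hepatic endoderm-like cells and 25 of the 485 cells of cluster 5, and ALDH1A1 at D21 was then 18.5 CPM. TMM scaling shifted the median log2 ratio of all genes by -0.11 (D8 to D14) and 0.28 (D14 to D21), and median-of-ratios scaling by -0.13 and 0.31. Spearman's correlation in place of Pearson's kept at least 2 of the 3 most similar genes for 2 of 7 genes. Without a filter on low genes, the share of all genes called was 14.8% and 7.26% (higher and lower at D14) and 10.1% and 22.2% (at D21). That share was not computed under the other alternatives, so counts called under them stand without one. CYP26B1 and ALDH1A2 are near the limit of detection in groups of under 100 cells. Where cells were chosen by their marker genes in place of clusters, CYP26A1 in CM-like cells of D8 was 13.8 CPM (6.03 by cluster) and CRABP2 in endothelial-like cells of D21 was 89.7 CPM (50.9 by cluster).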

Other observations

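Some listed genes stood far out in a group that the account by day does not show, and these were picked after their values were seen. NCOA3, a receptor coactivator, was 129 CPM [106–156] in endothelial-like cells of D8, beside at most 30.1 CPM in the other 24 groups. RARRES2, which encodes the secreted protein chemerin, was 334 CPM [308–363] in cluster 13 at D14, and RARRES3 was 116 CPM [89.3–148] in the 28 cells of cluster 2 at D14. RARRES3 was 0.0641 CPM over all cells of D8.

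In the hepatic endoderm-like cells of D21, ALDH1A1, DHRS3 and CYP26A1 were present together with RBP4, while CRABP1 had no UMI, STRA6 was 1.46 CPM and RARB 2.80 CPM. At D8, cluster 13 had the highest CRABP1 of the 7 groups of that day, and cluster 7 had the highest CYP26A1 and the highest RARB.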
